A study of Homo sapiens with 24 samples.

Results

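The integrated stress response and the cytosolic tRNA synthetases were followed in HK2 cells that can be depleted of VHL. The set held 36 genes of 26475 gene symbols in the count table, chosen by name: 6 transcription factors (ATF4, ATF5, DDIT3, CEBPB, CEBPG and NUPR1), 8 feedback and stress effectors (TRIB3, CHAC1, PPP1R15A, SESN2, DDIT4, EIF4EBP1, VLDLR and GDF15), 3 amino acid enzymes (ASNS, CTH and CBS), the tRNA exporter XPOT and 18 cytosolic aminoacyl-tRNA synthetases. All 36 were found, the synthetases under their older symbols (AARS for AARS1, and so on). The rule itself uses no measured value, but the set was proposed with earlier results of these data known. NUPR1, a stress-induced chromatin protein, was too low to be tested, with 0 to 9 counts per library and no count in 4 libraries, so 35 members were tested.

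The integrated stress response begins when a kinase that senses missing amino acids, unfolded protein, double-stranded RNA or lack of heme phosphorylates the translation factor eIF2. Bulk translation then falls while the ATF4 messenger RNA is translated better, so that ATF4 protein can rise without a like rise of its RNA. ATF4 pairs with C/EBP proteins on C/EBP-ATF response elements and turns on genes for amino acid synthesis, amino acid import and tRNA charging, as well as the feedback genes TRIB3 and PPP1R15A. DDIT4 and VLDLR are also known targets of the hypoxia-inducible factors, which VHL marks for degradation.

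HK2 is an immortalised line from human renal proximal tubule. WT8, MUT10 and MUT35 are single-cell clones of it that share a VHL transgene kept on by doxycycline (dox), and according to the study endogenous VHL is intact in WT8 and was knocked out with CRISPR-Cas9 in MUT10 and MUT35. Each clone was sequenced with dox (dox on) and after its withdrawal (dox off), in 4 replicates per state and 24 libraries in all. The time since withdrawal is not given in the sources used here, each genotype rests on 1 or 2 clones, and nothing says that replicates were separate cultures, so p-values measure the spread between these libraries, which may be technical. In the labels the tissue is lung, WT8 is wild type whatever its dox state, and MUT10 and MUT35 are wild type while on dox, whereas the design text of the series counts WT8 without dox as a knockout and a sentence of the study's methods lists WT8 among clones with a VHL mutation. Of 6 lung markers, 5 had a mean under 1 CPM (gene counts scaled to a common library size, with TMM-normalised totals), and SFTPA1 and SFTPC had no count in any library, whereas 8 of 14 epithelial and renal markers reached a mean of 10 CPM, among them PAX8. The other 6 were under 1 CPM, namely CDH1, PAX2 and the proximal tubule genes LRP2, CUBN, AQP1 and SLC34A1. KRT7, counted among the 8, was at 27.9 to 67.6 CPM in WT8 and at 0.82 to 1.79 CPM in MUT35. Of 9 fibroblast, endothelial and leukocyte markers, 2 reached a mean of 10 CPM, CD68 (233 CPM, 112 to 554 over the libraries) and COL1A1 (15.6 CPM), and 6 were under 1 CPM, COL1A2 among them with no count. CD68 was at 319 ± 57 CPM with dox and 461 ± 75 after withdrawal in MUT10 (SD, n = 4), and its part in the results for that clone was not tested.

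VHL RNA dropped in each clone: WT8 held 220.2 ± 15 CPM on dox and 30.0 ± 3.1 off it, MUT10 381 ± 15 and 30.0 ± 3.1, and MUT35 229 ± 31 and 18.2 ± 0.36 (SD, n = 4 each). Reads of the transgene and of endogenous VHL are counted together. Library totals ran from 5206663 to 18196003 counts. Libraries also differed by dox state in how GC-rich transcripts fared. Per 10 percentage points of GC content, log2 CPM relative to the mean library had a slope that ran from -0.0099 to 0.42 in dox off libraries and from -0.36 to -0.030 in dox on libraries. The intermediate slopes were those of MUT10 dox off replicate 4 (-0.0099) and MUT10 dox on replicate 2 (-0.030). Which libraries were prepared together is not given in the sources used here, so dox state and preparation cannot be told apart. In bulk RNA, fewer cells expressing a gene and less RNA per cell cannot be told apart either. The main withdrawal effects are therefore given beside a fit in which each library's trend with GC content was removed.

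Sequences at the start of some members' genes hold a match to the core of the C/EBP-ATF response element. Those of 6 members that recur in the results are printed here. Binding of ATF4 to them was not tested. RefSeq promoter windows (GRCh38.p14, 250 bases before to 50 after a transcript's start, with 1 or more starts per gene) were at hand for 30 of the 36 members, and 13 of these (43.33%) had more than 1 window, against 19.01% of all genes. None was used for DARS, EIF4EBP1, LARS, NUPR1, VARS and YARS. The core of the element was searched as TTGCATCA and in the looser form TTNCATCA, which contains the first, on both strands. Each line is 30 bases of the gene's own strand, 5′ to 3′, with the match in capitals (TGATGCAA and TGATGAAA are matches on the other strand).
ASNS, chr7:97872458-97872487, minus strand: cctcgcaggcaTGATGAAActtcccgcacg
CHAC1, chr15:40953251-40953280, plus strand: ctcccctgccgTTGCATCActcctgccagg
CEBPG, chr19:33374060-33374089, plus strand: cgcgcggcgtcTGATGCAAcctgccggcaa
CARS, chr11:3057407-3057436, minus strand: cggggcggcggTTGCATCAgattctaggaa
GARS, chr7:30594834-30594863, plus strand: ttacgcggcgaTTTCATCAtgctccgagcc
TARS, chr5:33440956-33440985, plus strand: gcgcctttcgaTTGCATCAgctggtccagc

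Each of the 6 genes except CHAC1 had 2 windows, and the match lay in one of them. Counted from the start that this window belongs to, which need not be the outermost start of the gene, the match began 68 bases before it in ASNS, 209 bases in CHAC1, 33 bases in GARS and 42 bases in CEBPG. The looser form was found in a window of 10 of the 30 members (33.33%), the 6 above with AARS, IARS, MARS and NARS, against 1217 of 27305 genes with a window (4.457%). Per window it was 10 of 46 (21.74%), against 3.617% of 35116. The strict form was found in 8 members (26.67%), against 1.08% of all genes. Among the synthetases the looser form stood in 7 of 14 (50%), among the mitochondrial synthetases in 1 of 14 (7.143%). ATF4, DDIT3, TRIB3, DDIT4 and VLDLR had no match in this window. Of the 10 with the looser form, 3 were called higher in the interaction described below, CARS, GARS and ASNS. Of the 20 whose windows lacked it, 6 were (12.1% of all genes tested were higher). The share called higher in the interaction was thus alike with and without the form, on few genes. In other comparisons the shares were unlike. Withdrawal in WT8 lowered 6 of the 10 and 4 of the 20 (29.8% of all genes tested). Withdrawal in MUT35 raised 3 of the 10 and 11 of the 20 (32%). Whether the form bears on the calls was not tested.

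Withdrawal of dox from WT8, the clone with endogenous VHL, raised 8 of the 35 members and lowered 13, in edgeR's quasi-likelihood test at a Benjamini-Hochberg adjusted p under 0.05 over the 13900 genes tested. Of all genes tested, 29.5% were higher and 29.8% lower. The members that rose were ATF4, ATF5, CEBPB, CHAC1, EIF4EBP1, SESN2, QARS and VARS, and 10 of the 13 that fell were synthetases. In MUT10, 19 members rose (33.8% of all genes were higher) and 9 fell (32.3% lower). In MUT35, 16 rose (32% higher) and 10 fell (31.3% lower). The median log2 fold change of the members was 0.01 in WT8, 0.19 in MUT10 and 0.10 in MUT35, against 0.01, 0.04 and 0.01 over all genes tested. Every dox off library lay above every dox on library for 8 of the 35 members in WT8 (27.6% of all genes tested), 15 in MUT10 (25.1%) and 15 in MUT35 (29.5%). Every dox off library lay below for 13 in WT8 (28%), 6 in MUT10 (24.7%) and 12 in MUT35 (29.7%).

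Members called higher in all 3 clones were ATF4, ATF5, CEBPB, CHAC1, EIF4EBP1, SESN2 and QARS, 7 in all (18.3% of all genes tested were). Those called lower in all 3 were CEBPG and the synthetases DARS, EPRS, LARS, NARS, RARS, TARS and YARS, 8 in all (20.3% of all genes tested). A further 7, CARS, DDIT4, GARS, GDF15, PPP1R15A, TRIB3 and VLDLR, were called higher in both mutant clones and not in WT8 (7.06% of all genes tested), and no member was called lower in that way. These classes rest on calls and not on a test of the difference, which did not pass for GDF15 (interaction 0.06, adjusted p = 0.83). CTH, HARS, IARS and MARS passed in no clone.

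**Figure D1:**
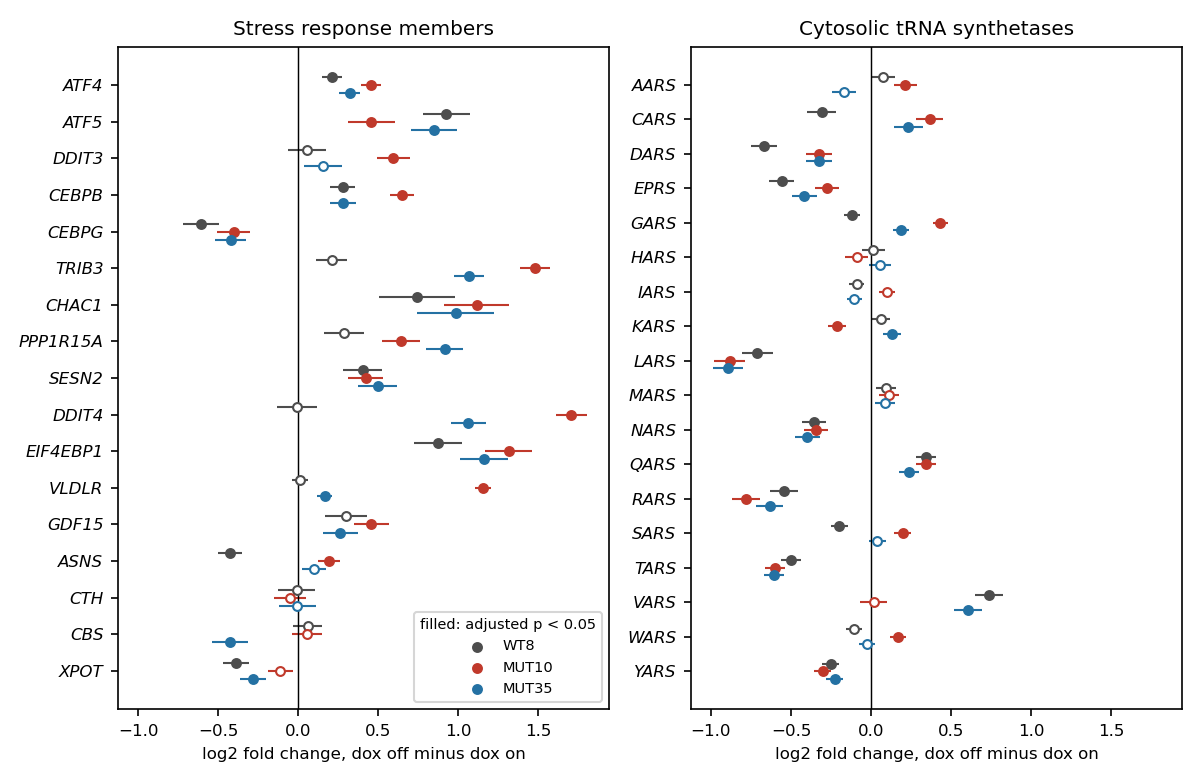
Log2 fold change of each tested member on dox withdrawal (horizontal axis, dox off minus dox on) in WT8 (grey), MUT10 (red) and MUT35 (blue), with stress response members at left and synthetases at right. Bars are standard errors and filled points have an adjusted p under 0.05. TRIB3 and DDIT4 stand to the right in both mutant clones and lie at 0.21 and -0.01 in WT8, while LARS lies between -0.89 and -0.71 in all 3 clones.

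GC content moved with these withdrawal effects. Median transcript GC content was 49.0% for the 18 synthetases (40.1 to 61.7%) and 58.2% for the other 18 members (40.5 to 66.2%). Across the 35 members, Spearman's rho between GC content and log2 fold change was 0.85 in WT8, 0.68 in MUT10 and 0.74 in MUT35, and across 13472 genes it was 0.74, 0.57 and 0.65. The members share libraries and are not independent replicates. For the differences between clones it was near 0, at -0.02 over the members for the interaction. With each library's GC trend removed, 7 members were called higher (21.3% of all genes in that fit) and 14 lower (19.5%) in WT8. In MUT10 the corrected counts were 16 (33.1%) and 8 (28.7%), and in MUT35 13 (28.4%) and 9 (25.2%). Only 3 of the 8 members called higher in WT8 kept that call, 4 lost it, and CEBPB was then called lower (log2 fold change -0.44, adjusted p = 6.85e-04). The corrected fit called 4 members higher in all 3 clones (CTH, EIF4EBP1, IARS and VLDLR; 11.1% of all genes) and 6 lower (CBS, LARS, NARS, RARS, TARS and YARS; 11.6%). Of the 7 members higher in all clones as deposited, EIF4EBP1 was the one that remained. Called higher in both mutants and not in WT8 were then ASNS, ATF4, DDIT4, GARS, PPP1R15A, TRIB3 and XPOT (10.7% of all genes), while CARS, GDF15 and VLDLR left that class.

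**Figure D2:**
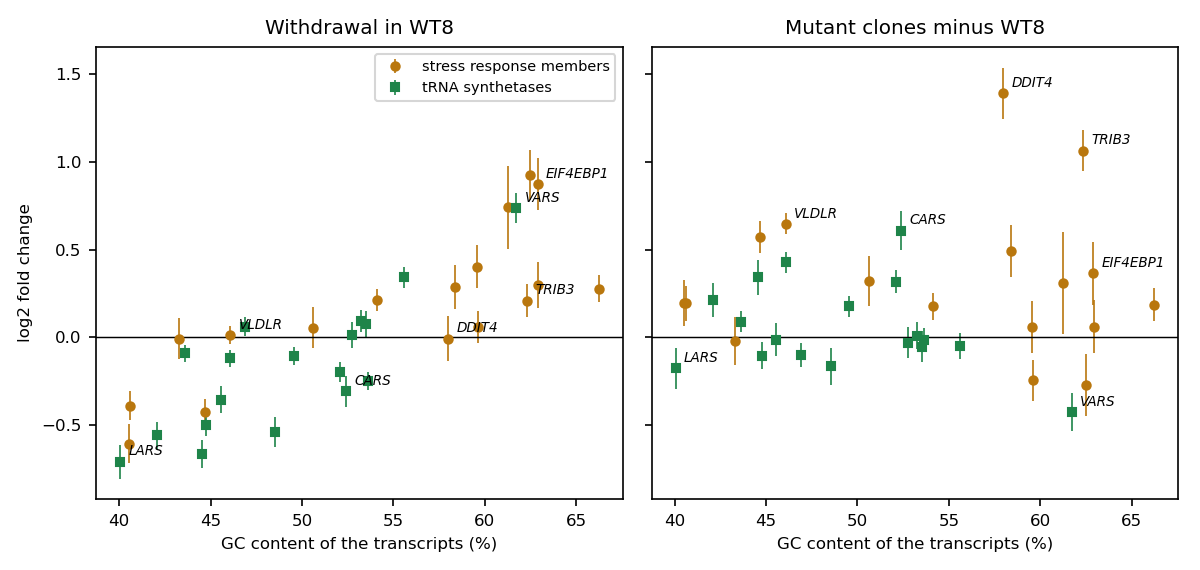
GC content of each member's transcripts in percent (horizontal axis) against its log2 fold change (vertical axis) on withdrawal in WT8 (left) and for the mutant clones' withdrawal effect minus that of WT8 (right). Circles are stress response members, squares synthetases, and bars standard errors. At left values run from -0.71 (LARS) to 0.93 (ATF5) and are higher where GC content is higher, and at right they show no slope.

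The interaction asks whether withdrawal acted differently where endogenous VHL was missing. It sets the mean withdrawal effect of MUT10 and MUT35 against that of WT8, so that what dox or library preparation did alike in all clones drops out. It was higher for 10 members (12.1% of all genes tested were higher) and lower for 1 (11.4% lower). DDIT4, TRIB3, VLDLR, CARS, ASNS, PPP1R15A, GARS, DARS, SARS and WARS were higher and VARS was lower. The median over the members was 0.18, against 0.01 over all genes tested. All 11 kept their calls with the GC trend removed, where 14 members were higher (17.1% of all genes in that fit) and 3 lower (15.9%). Without the 2 MUT10 libraries of intermediate GC slope, 11 were higher (13.2%) and 4 lower (16.6%). By role, 4 of 8 effectors, 1 of 3 amino acid enzymes and 5 of 18 synthetases were higher, and none of the 5 tested transcription factors passed in edgeR's test. Under DESeq2 the members counted 10 higher and 1 lower, beside 1577 and 1703 of the 14320 genes in that fit.

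TRIB3 (ENSG00000101255, GRCh38 chr20:380760-397559, plus strand) encodes a pseudokinase that restrains ATF4 and AKT. It was at 78.2, 107, 87.1 and 88.9 CPM in the WT8 libraries with dox and at 105, 106, 101 and 107 CPM after withdrawal. MUT10 had 102, 125, 109 and 95.4 CPM with dox and 314, 311, 331 and 248 CPM after withdrawal. MUT35 had 79.2, 88.4, 73.3 and 83.1 CPM with dox and 165, 189, 159 and 168 CPM after withdrawal. The dox off libraries of both mutant clones thus lay above all other libraries, and those of WT8 overlapped with its dox on libraries. The log2 fold change was 1.48 in MUT10 (SE 0.092, adjusted p = 4.86e-13), 1.07 in MUT35 (SE 0.093, adjusted p = 7.21e-10) and 0.21 in WT8 (SE 0.095, adjusted p = 0.060). In the corrected fit the mutant values were 0.91 and 0.46 and the WT8 value turned to -0.38 (adjusted p = 6.81e-07). The WT8 value as deposited passed under DESeq2 (0.22, adjusted p = 0.042). The interaction stayed at 1.06 as deposited (SE 0.12, adjusted p = 7.94e-08) and 1.07 corrected (SE 0.061).

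DDIT4 (ENSG00000168209, chr10:72273924-72276036, plus strand), also called REDD1, inhibits mTORC1. It was at 8.35, 9.45, 8.49 and 7.02 CPM with dox and at 9.33, 7.43, 7.38 and 8.997 CPM after withdrawal in WT8. In MUT10 the dox on libraries had 14.85, 18.2, 16.3 and 14.4 CPM and the dox off libraries 51.6, 52.2, 58.1 and 46.2 CPM. In MUT35 the values were 8.53, 8.94, 9.45 and 10.1 CPM with dox and 22.1, 17.9, 17.6 and 19.9973 CPM after it. All mutant dox off libraries except 2 of MUT35 stood above every dox on library, and those 2 overlapped only with MUT10 dox on replicate 2. Its log2 fold change was 1.71 in MUT10 (SE 0.096, adjusted p = 6.24e-14), 1.06 in MUT35 (SE 0.11, adjusted p = 9.42e-09) and -0.01 in WT8 (SE 0.13, adjusted p = 0.97). With the GC trend removed these were 1.32, 0.66 and -0.40, all called. The interaction of 1.39 (SE 0.15, adjusted p = 5.53e-08) was the largest of any member.

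VLDLR (ENSG00000147852, chr9:2621787-2660056, plus strand), a lipoprotein receptor, had the largest difference between the mutant clones of any member. WT8 had 114, 112, 114 and 118 CPM with dox and 106, 112, 122 and 122 CPM after withdrawal. MUT10 went from 65.4, 67.8, 68.8 and 64.5 CPM to 147, 151, 144 and 151 CPM. MUT35 began higher, at 190.4, 186, 191 and 178 CPM, and was at 202, 217, 208 and 209 CPM after withdrawal. The groups of each mutant clone did not overlap, and those of WT8 did. The log2 fold change was 1.15 in MUT10 (SE 0.050, adjusted p = 2.77e-16), 0.17 in MUT35 (SE 0.047, adjusted p = 3.54e-03) and 0.01 in WT8 (SE 0.049, adjusted p = 0.84), and these became 1.33, 0.35 and 0.19 with the GC trend removed, all called. The interaction of 0.65 (SE 0.060, adjusted p = 5.60e-09) thus averaged unlike effects.

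PPP1R15A (GADD34) brings a phosphatase to eIF2 and so ends the response. It was at 32.6, 45.9, 40.9 and 44.1 CPM with dox and at 50.8, 52.0, 48.7 and 49.7 CPM after withdrawal in WT8. MUT10 had 43.95, 55.6, 47.7 and 41.9 CPM with dox and 80.6, 77.7, 82.3 and 54.7 CPM after it, the last of these below the highest dox on library. MUT35 rose from 51.0, 60.8, 41.8 and 59.3 CPM to 100.1, 109, 96.0 and 96.9 CPM. The groups of WT8 and of MUT35 did not overlap. The log2 fold change was 0.29 in WT8 (SE 0.12, adjusted p = 0.051), 0.64 in MUT10 (SE 0.12, adjusted p = 4.32e-05) and 0.91 in MUT35 (SE 0.12, adjusted p = 3.15e-07), and the interaction was 0.49 (SE 0.15, adjusted p = 0.018). In the corrected fit the withdrawal values were -0.14 (not called), 0.23 and 0.49, and the interaction 0.50. The call as deposited was lost without WT8 dox on replicate 2 (0.43, adjusted p = 0.052) or 4 (0.45, adjusted p = 0.0503).

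The other effectors gave no call in the interaction. CHAC1, which degrades glutathione, was low, at 1.33, 3.48, 2.87 and 1.70 CPM with dox and 4.37, 4.99, 3.77 and 3.08 CPM after withdrawal in WT8. It went from 3.95, 4.31, 2.52 and 2.98 CPM to 8.68, 7.92, 7.22 and 5.80 CPM in MUT10, and from 1.73, 1.92, 1.56 and 2.26 CPM to 4.31, 3.34, 3.03 and 4.19 CPM in MUT35. The groups of both mutant clones did not overlap, and those of WT8 did. It rose in each clone, by 0.74 in WT8, 1.11 in MUT10 and 0.98 in MUT35 on the log2 scale, and its interaction was 0.31 (SE 0.29, adjusted p = 0.50). With the GC trend removed it passed in MUT10 (0.58, adjusted p = 3.43e-03) and not in WT8 (0.20) or MUT35 (0.42), and the difference between MUT10 and MUT35 did not pass (0.16). The WT8 call as deposited was lost without WT8 dox on replicate 4 (0.58, adjusted p = 0.060). EIF4EBP1, the translation repressor 4E-BP1, rose by 0.87, 1.31 and 1.16, or 0.26, 0.71 and 0.52 corrected, with an interaction of 0.36 (SE 0.18, adjusted p = 0.15) that passed with the GC trend removed (0.36, SE 0.087, adjusted p = 1.85e-03). SESN2, a leucine sensor upstream of mTORC1, rose by 0.40, 0.42 and 0.50, and in none of the clones with the GC trend removed. GDF15, a secreted stress hormone, rose by 0.46 in MUT10 and 0.26 in MUT35, was then called lower in MUT35 in the corrected fit (-0.37, adjusted p = 2.48e-03), and had an interaction of 0.06. Over the 8 effectors, MUT35 gave 8 higher and 0 lower as deposited (32% and 31.3% of all genes) and 5 and 1 corrected (28.4% and 25.2%). MUT10 gave 8 and 0 as deposited (33.8% and 32.3%) and 6 and 0 corrected (33.1% and 28.7%), and WT8 3 and 0 (29.5% and 29.8%) and 2 and 2 (21.3% and 19.5%).

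**Figure D3:**
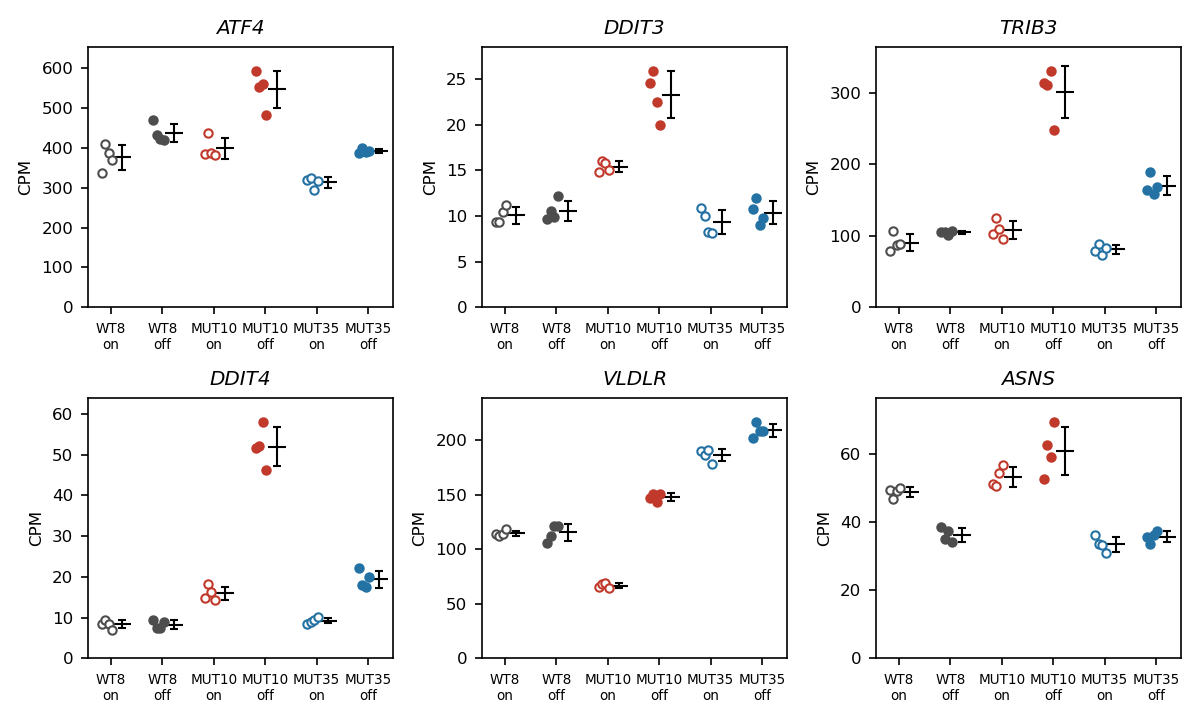
CPM (vertical axis, from 0) of ATF4, DDIT3, TRIB3, DDIT4, VLDLR and ASNS for all 24 libraries, grouped by clone and then by dox (horizontal axis). Open points are dox on and filled points dox off libraries, and the bars beside them are the mean and SD of 4 libraries. TRIB3 and DDIT4 are lifted after withdrawal in MUT10 and MUT35, at up to 331 and 58.1 CPM, and WT8 stays at up to 107 and 9.45 CPM.

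Among the transcription factors, ATF4 RNA (ENSG00000128272, chr22:39520559-39522686, plus strand) rose modestly. It was at 338, 410.3, 389 and 369.8 CPM with dox and at 469, 434, 423 and 420.5 CPM after withdrawal in WT8. MUT10 had 386, 439, 388 and 383 CPM with dox and 594, 552, 559.9 and 483 CPM after it, and MUT35 had 321, 325, 294 and 316 CPM and then 387, 399.6, 390.4 and 391 CPM. In each clone every dox off library lay above every dox on library. The log2 fold changes were 0.21 in WT8 (SE 0.063, adjusted p = 5.58e-03), 0.46 in MUT10 (SE 0.063, adjusted p = 6.18e-07) and 0.32 in MUT35 (SE 0.063, adjusted p = 9.73e-05). With the GC trend removed WT8 gave -0.01 (adjusted p = 0.82), MUT10 0.26 and MUT35 0.11, the mutants still called. The interaction was 0.18 (SE 0.077, adjusted p = 0.10) as deposited and 0.20 (SE 0.047, adjusted p = 1.48e-03) corrected, and it also passed without MUT10 dox off replicate 4 (0.20) or WT8 dox on replicate 1 (0.22).

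DDIT3, the pro-apoptotic factor CHOP, passed the test in MUT10 and not in WT8 or MUT35. Its WT8 libraries had 9.29, 9.33, 10.4 and 11.2 CPM with dox and 9.72, 10.5, 9.84 and 12.2 CPM after withdrawal. MUT10 libraries had 14.85, 15.97, 15.8 and 15.05 CPM and then 24.6, 25.9, 22.5 and 19.9991 CPM, without overlap. MUT35 libraries had 10.9, 10.0, 8.21 and 8.18 CPM and then 10.8, 11.9, 8.99 and 9.78 CPM, and both these clones' groups overlapped. The log2 fold change was 0.59 in MUT10 (SE 0.10, adjusted p = 1.55e-05) and 0.16 in MUT35 (SE 0.12, adjusted p = 0.25), but the difference between these, 0.44 (SE 0.16, adjusted p = 0.071), did not pass. It passed with the GC trend removed (0.44, adjusted p = 0.034), and without MUT10 dox off replicate 4, MUT35 dox off replicate 2 or MUT35 dox on replicate 4 (0.50 to 0.51). DDIT3 shares 355 exon bases (27.2% of its own) with MARS on the other strand, and whether the counting used strand is not given in the sources used here, so both counts are uncertain. ATF5 likewise overlaps NUP62 over 565 bases and CEBPB overlaps CEBPB-AS1 over 231.

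ATF5, a mitochondrial stress factor, rose by 0.93 in WT8, 0.46 in MUT10 and 0.85 in MUT35, with an interaction of -0.27 (SE 0.18, adjusted p = 0.29). Corrected for the GC trend it was 0.33 in WT8 and 0.23 in MUT35, both called, and -0.13 in MUT10 (adjusted p = 0.21), and the interaction of -0.27 was called (adjusted p = 0.045). CEBPB, the inflammatory C/EBP factor, rose by 0.28, 0.65 and 0.28, and with the GC trend removed it was called lower in WT8 and in MUT35 (-0.47) and passed in MUT10 no longer (-0.04). CEBPG, the C/EBP partner of ATF4, fell by 0.61 in WT8, by 0.40 in MUT10 and by 0.42 in MUT35, and in the corrected fit it passed in no clone. Its group means after withdrawal were 10.4 ± 0.80 CPM in WT8, 15.9 ± 3.3 in MUT10 and 19.8 ± 0.18 in MUT35 (SD, n = 4).

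Of the amino acid enzymes, ASNS (asparagine synthetase, ENSG00000070669, chr7:97851677-97928441, minus strand) fell in WT8, from 49.3, 46.8, 49.2 and 50.03 CPM to 38.6, 34.9, 37.3 and 34.3 CPM. In MUT10 the values were 51.1, 50.7, 54.5 and 56.8 CPM with dox and 52.5, 62.5, 59.1 and 69.5 CPM after it, and in MUT35 36.3, 33.6, 33.2 and 30.8 CPM and then 35.8, 33.6, 36.2 and 37.4 CPM. The WT8 groups did not overlap and those of both mutants did. Its log2 fold change was -0.43 in WT8 (SE 0.074, adjusted p = 2.97e-05), 0.19 in MUT10 (SE 0.071, adjusted p = 0.020) and 0.10 in MUT35 (SE 0.075, adjusted p = 0.26). The MUT10 call was lost without the 2 MUT10 libraries of intermediate GC slope (0.06, adjusted p = 0.42), or without MUT10 dox off replicate 4, dox on replicate 1 or dox on replicate 2 taken singly (0.12 to 0.17). With the GC trend removed the values were -0.18, 0.43 and 0.34, all called. The interaction was 0.57 in both fits (SE 0.090, adjusted p = 2.68e-05 as deposited). CTH, which makes cysteine from cystathionine, passed in no clone as deposited and was called higher in each with the GC trend removed (0.27 to 0.31). CBS, which makes cystathionine and has a near-identical copy in the genome that makes its count uncertain, fell in MUT35 by 0.43 (SE 0.11, adjusted p = 1.59e-03). With the GC trend removed, CBS was called lower in each clone. XPOT, which carries tRNA out of the nucleus, fell by 0.39 in WT8 and by 0.28 in MUT35, and with the GC trend removed it was called higher in MUT10 (0.33) and in MUT35 (0.16).

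The 18 synthetases load amino acids onto tRNA, and their transcripts were lower in GC content than those of the other members. As deposited, 2 rose and 10 fell in WT8 (29.5% and 29.8% of all genes), 6 rose and 8 fell in MUT10 (33.8% and 32.3%), and 5 rose and 7 fell in MUT35 (32% and 31.3%), so that the shares that rose in the mutants were near those of all genes. Corrected, the counts were 3 and 9 (21.3% and 19.5%), 5 and 7 (33.1% and 28.7%), and 3 and 6 (28.4% and 25.2%). Their median log2 fold change was -0.16 in WT8, -0.04 in MUT10 and -0.07 in MUT35, and -0.01 in the interaction.

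LARS, for leucine, fell in every clone, from 116, 104, 110.2 and 117 CPM to 64.7, 63.0, 74.7 and 70.3 CPM in WT8. MUT10 went from 143, 112, 136 and 153 CPM to 60.3, 71.1, 73.2 and 90.1 CPM, and MUT35 from 161, 156, 173 and 167 CPM to 89.1, 91.7, 94.3 and 79.0 CPM. No clone's groups overlapped. It fell by 0.71 in WT8 (SE 0.096), by 0.88 in MUT10 (SE 0.095) and by 0.89 in MUT35 (SE 0.094), and with the GC trend removed by 0.26, 0.41 and 0.42, called in each. RARS and TARS, for arginine and threonine, fell by 0.78 and 0.60 in MUT10 and by 0.63 and 0.61 in MUT35, and they too kept their calls in the corrected fit. EPRS, the joined enzyme for glutamate and proline, fell by 0.28 in MUT10 as deposited and was called higher there with the GC trend removed (0.10, adjusted p = 0.026). QARS, for glutamine, rose in each clone, by 0.24 to 0.34, and in none with the GC trend removed.

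CARS and GARS, for cysteine and glycine, were higher in the interaction. CARS libraries in WT8 had 25.0, 27.9, 29.5 and 24.8 CPM with dox and 21.0, 20.8, 21.98 and 22.7 CPM after withdrawal. MUT10 went from 31.1, 30.2, 32.4 and 28.2 CPM to 38.6, 39.1, 35.8 and 43.2 CPM, without overlap, and MUT35 from 24.9, 20.4, 20.7 and 25.6 CPM to 25.3, 25.7, 25.2 and 31.1 CPM, with overlap. The WT8 groups did not overlap, and dox off lay below dox on (log2 fold change -0.31). Its interaction was 0.61 (SE 0.11, adjusted p = 1.46e-04), and the corrected withdrawal values were -0.44 in WT8, 0.25 in MUT10 and 0.11 in MUT35, the last not called. GARS, which serves cytosol and mitochondria, had 267, 275, 269 and 255 CPM with dox and 258, 234, 247 and 243 CPM after withdrawal in WT8. MUT10 rose from 279, 274, 269.7 and 276 CPM to 345, 364, 371 and 402 CPM, and MUT35 from 309, 293, 314 and 304 CPM to 329.6, 364, 352 and 342 CPM, neither with overlap, while the WT8 groups overlapped. Its interaction was 0.43 (SE 0.059, adjusted p = 4.36e-06), and its corrected withdrawal values were 0.06 (not called), 0.61 and 0.37. DARS, SARS and WARS, for aspartate, serine and tryptophan, had interactions of 0.34, 0.32 and 0.18. For DARS this meant a smaller fall, by 0.33 in MUT10 and 0.32 in MUT35 against 0.67 in WT8, and with the GC trend removed DARS passed in WT8 (-0.41) and in neither mutant. For SARS the ratio of mean CPM, dox off over dox on, was 0.87 in WT8, 1.15 in MUT10 and 1.03 in MUT35. For WARS it was 0.93, 1.12 and 0.98. The MUT35 groups of both overlapped.

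VARS, for valine, was the member that was lower in the interaction (-0.43, SE 0.11, adjusted p = 4.01e-03). It rose in WT8, from 66.4, 86.0, 81.2 and 78.4 CPM to 143, 127, 128 and 124 CPM. MUT10 had 88.9, 106, 96.2 and 81.1 CPM with dox and 101, 100.021, 97.0 and 77.9 CPM after it, and MUT35 had 71.9, 74.4, 65.2 and 69.4 CPM and then 107, 104, 101 and 116 CPM. WT8 and MUT35 groups did not overlap and MUT10 groups did. The log2 fold change was 0.74 in WT8 (SE 0.087, adjusted p = 4.28e-07), 0.02 in MUT10 (SE 0.086, adjusted p = 0.88) and 0.61 in MUT35 (SE 0.087, adjusted p = 1.55e-06). The MUT10 effect differed from that of MUT35 by -0.59 (SE 0.12, adjusted p = 1.49e-03). With the GC trend removed the values were 0.16, -0.53 and 0.02 in WT8, MUT10 and MUT35.

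**Figure D4:**
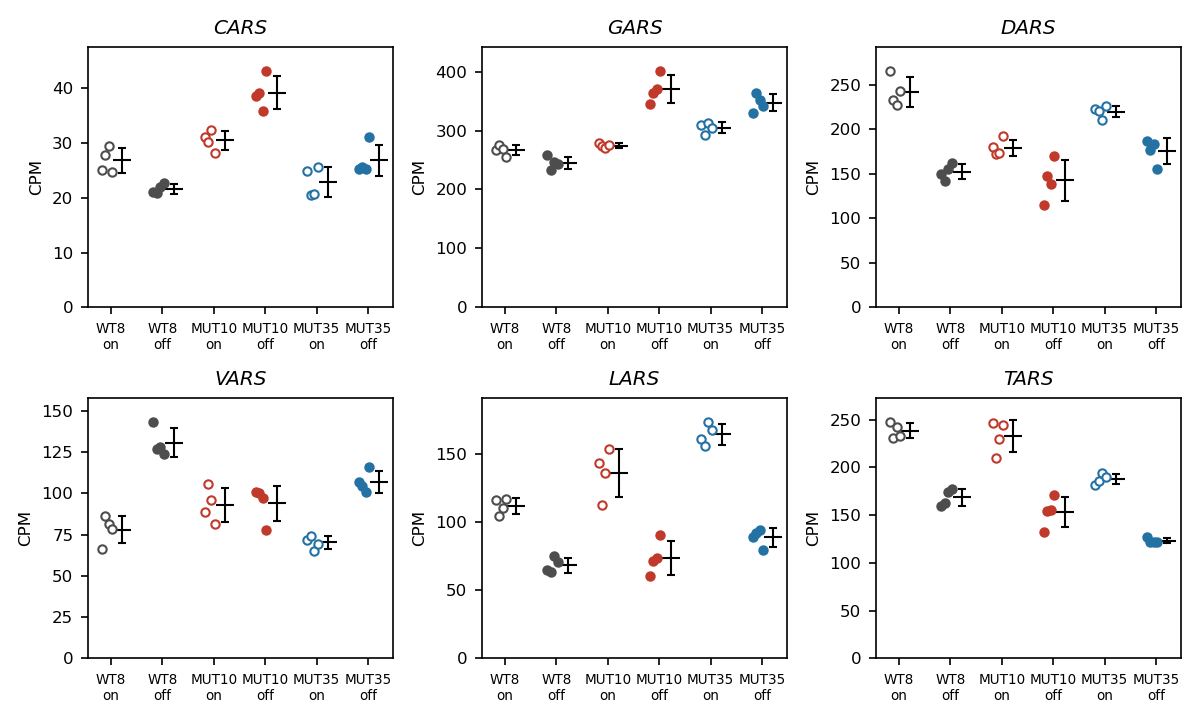
CPM (vertical axis, from 0) of CARS, GARS, DARS, VARS, LARS and TARS for all 24 libraries, grouped by clone and then by dox (horizontal axis). Open points are dox on and filled points dox off libraries, and the bars beside them are the mean and SD of 4 libraries. GARS sits above its dox on libraries in MUT10 and MUT35, at 329.6 to 402 CPM, and LARS and TARS sit below theirs in all 3 clones.

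A direct comparison of the mutant clones with WT8 after withdrawal also holds whatever separates the clones with dox. It was higher for 17 members (27.6% of all genes tested were higher) and lower for 6 (28.2% lower). The corrected fit gave 19 higher (31% of all genes) and 9 lower (32.1%). DDIT4 led at 1.94 (SE 0.096, adjusted p = 2.16e-15), followed by GDF15 at 1.19 (SE 0.10, adjusted p = 1.61e-10), TRIB3 at 1.11 (SE 0.083, adjusted p = 1.04e-11) and PPP1R15A at 0.78 (SE 0.10, adjusted p = 5.15e-07). GDF15 already differed with dox, at 9.58 ± 1.5 CPM in WT8, 20.5 ± 0.98 in MUT10 and 22.1 ± 2.8 in MUT35 (SD, n = 4). Lower were CBS (-0.78), KARS (-0.48), ATF5 (-0.41), VARS (-0.38), QARS (-0.35) and TARS (-0.30). CBS was at 18.1 ± 1.2 CPM in WT8, 16.4 ± 1.6 in MUT10 and 6.76 ± 0.74 in MUT35 after withdrawal (SD, n = 4), with MUT35 well below the others. DDIT3 was higher at 0.56 (SE 0.096, adjusted p = 1.98e-05), with 23.3 ± 2.6 CPM in MUT10, 10.4 ± 1.3 in MUT35 and 10.6 ± 1.1 in WT8 (SD, n = 4). MUT10 thus stood above the others, and MUT35 and WT8 lay within their spread.

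The mutant clones were then set against each other. The withdrawal effect, whatever its sign, was higher in MUT10 than in MUT35 for 7 members (6.7% of all genes tested were higher) and lower for 2 (4.41% lower). With the GC trend removed these counts were 11 (11.1% of all genes) and 3 (8.28%). VLDLR differed by 0.99 (SE 0.069, adjusted p = 8.46e-11) and DDIT4 by 0.64 (SE 0.15, adjusted p = 3.46e-03). CBS (0.48, adjusted p = 0.030), TRIB3 (0.41, adjusted p = 0.041), AARS (0.38), CEBPB (0.37) and GARS (0.25) were also higher, and VARS and KARS (-0.34, SE 0.080, adjusted p = 4.89e-03) lower. For CBS the ratio of mean CPM, dox off over dox on, was 1.03 in MUT10 and 0.74 in MUT35. For AARS it was 1.16 in MUT10 and 0.89 in MUT35. KARS, for lysine, was called lower in MUT10 (-0.21) and higher in MUT35 (0.13), or -0.07 (not called) and 0.27 (called) corrected. The call of TRIB3 was lost without any 1 of 12 of the mutant libraries, and that of CBS without any 1 of 7.

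Other genes of the pathway were read from fixed lists. Of 23 further ATF4 target genes, 7 were higher and 0 lower in the interaction (12.1% and 11.4% of all genes tested), at a median of 0.13. GPT2, which makes alanine, was at 39.3 ± 1.8 CPM with dox and 39.4 ± 4.0 after withdrawal in WT8, 30.5 ± 1.7 and 66.8 ± 3.1 in MUT10, and 23.1 ± 1.9 and 36.1 ± 0.92 in MUT35 (SD, n = 4), with an interaction of 0.89 (SE 0.088, adjusted p = 1.83e-08). ALDH18A1, which starts proline synthesis, had an interaction of 0.46 (SE 0.062, adjusted p = 3.26e-06). The amino acid transporter gene SLC6A9 (1.06), KLHL24 (0.85), SESN1 (0.76), ATF3 (0.47) and the glutamine transporter gene SLC38A2 (0.18) were the remaining 5. SLC38A2 was lower after withdrawal in WT8 (log2 CPM 7.58 to 7.65, against 7.97 to 8.03 with dox) and in MUT35 (7.33 to 7.43, against 7.61 to 7.66). KLHL24 was lower in WT8 (2.87 to 3.09, against 3.38 to 3.71), and its groups overlapped in both mutants. SESN1 rose in MUT10 (2.57 to 2.95, against 1.92 to 2.44), its MUT35 groups overlapped, and WT8 had 1.72 to 2.12, against 2.10 to 2.78. For ATF3, a stress-induced transcription factor, the interaction averaged unlike effects, since it was at 26.5 ± 1.6 CPM with dox and 25.4 ± 1.2 after withdrawal in MUT10, and at 22.9 ± 0.90 and 43.1 ± 2.4 in MUT35 (SD, n = 4). The serine pathway genes PHGDH, PSAT1, SHMT2 and MTHFD2 had values from -0.08 to 0.06 and did not pass, nor did PSPH. Values near 0 do not mean that withdrawal left these genes unchanged. MTHFD2 was lower after withdrawal in each clone, and PSAT1 in WT8 and MUT35. SHMT2 was higher in WT8 and MUT10. PHGDH groups overlapped in both mutants, at 5.19 to 5.54 after withdrawal in MUT10 (5.06 to 5.40 with dox) and 4.15 to 4.62 in MUT35 (4.61 to 4.81).

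Of 15 genes for eIF2, its kinases and its exchange factor eIF2B, 1 was higher and 3 were lower in the interaction, around the 12.1% and 11.4% of all genes. EIF2AK3, the kinase PERK, was higher (0.48, SE 0.14, adjusted p = 0.012). Its withdrawal values were -0.29 in WT8, 0.31 in MUT10 and 0.06 in MUT35, the last not called. With the GC trend removed they were 0.17 (not called), 0.79 and 0.53. Lower were the eIF2B subunit gene EIF2B2 (-0.40), PPP1R15B (-0.25), which encodes the constitutive partner of the eIF2 phosphatase, and GCN1 (-0.21), an activator of the kinase GCN2. In WT8, EIF2B2 rose by 0.31 and PPP1R15B by 0.17. GCN1 rose in WT8 (log2 CPM 6.68 to 6.77, against 6.19 to 6.29 with dox). It also rose in MUT35 (6.47 to 6.58, against 6.12 to 6.32), and its MUT10 groups overlapped. Among 6 other genes of cytosolic charging, 0 were higher and 2 lower (12.1% and 11.4% of all genes), AIMP2 (-0.58, SE 0.070, adjusted p = 4.97e-07), a scaffold of the multisynthetase complex, and FARSB (-0.30). Among 17 mitochondrial synthetases 2 were higher, IARS2 (0.50) and HARS2 (0.41), and 2 lower, including WARS2 (-0.24). The median of the 17 was 0.04. On withdrawal IARS2 gave -0.42 in WT8, 0.22 in MUT10 and -0.07 in MUT35, the last not called. Corrected, IARS2 gave -0.12 (not called), 0.52 and 0.23. HARS2 gave -0.32 in WT8, 0.12 in MUT10 and 0.06 in MUT35, and neither mutant was called in either fit.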

How the data were processed

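Poly(A) RNA from 24 libraries was sequenced by the authors, who aligned reads to hg38 with Bowtie2 and estimated gene counts with RSEM (versions not given in the sources used here). The sample labels and the study's methods name different library kits. The deposited values are RSEM expected counts, estimated per gene symbol and not scaled to library size, and all sample columns were used. The authors tested genes with DESeq2.

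After rounding to integers, counts were filtered with filterByExpr, normalised by TMM and fitted in edgeR 4.0.16 (R 4.3.3) with 1 quasi-likelihood model holding 6 group means and no covariate. P-values were adjusted by Benjamini-Hochberg over the 13900 genes tested (threshold 0.05), and SEs came from the fold change and F statistic. The common biological coefficient of variation was 8.37%. CPM used TMM-scaled library sizes. GC content came from GENCODE transcripts and was known for 13472 tested genes, and the correction removed each library's trend. The model was also run on simulated counts with known changes, drawn with its own fitted spread. These held no GC trend and no preparation effect, so they could not show how either acts on the results. Counting error is set by library totals of 5206663 to 18196003.

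The members and gene lists were chosen with earlier results of these data known. Named members were ATF4, DDIT3, ASNS, TRIB3 and CHAC1, up to 6 per direction with the largest called change in the interaction, and up to 4 in each other comparison. From each further list up to 2 per direction with the smallest adjusted p were named, and other genes were named after their values were seen. For 1 gene that this rule picks, no value is reported here. The results were recomputed with DESeq2 1.42.0, limma-voom (limma 3.58.1), RLE factors, library size alone, no filter, at least 10 counts in every library, a replicate term, the GC correction with and without it, only the groups compared, 2 MUT10 libraries left out, and each library left out. The GC correction without these 2 libraries was added after seeing the data.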

Additional observations from a re-analysis of the deposited data

Results flagged for a closer look

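In 10 of 126 groups of 4 libraries, a single library stood apart from the others by Dixon's criterion, which chance passes in about 1 group in 20. MUT10 dox off replicate 4 was lowest for ATF5 (14.3 CPM), PPP1R15A (54.7 CPM) and VARS (77.9 CPM). MUT10 dox on replicate 2 was highest for ATF4 (439 CPM) and ATF5 (17.5 CPM). These are the libraries of intermediate GC slope. In MUT35 after withdrawal, replicate 4 was highest for CARS (31.1 CPM) and replicate 1 for RARS (71.1 CPM) and TARS (127 CPM). In WT8 with dox, replicate 2 was lowest for CEBPG (13.6 CPM) and replicate 4 for KARS (368 CPM).

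The withdrawal effect differed between the mutant clones and WT8, by the interaction in edgeR, for DDIT4 (log2 fold change 1.39), TRIB3 (1.06), VLDLR (0.65), CARS (0.61), ASNS (0.57), PPP1R15A (0.49), GARS (0.43), DARS (0.34), SARS (0.32), WARS (0.18) and VARS (-0.43). Of the further genes named, it differed upward for GPT2 (0.89), IARS2 (0.50), EIF2AK3 (0.48), ALDH18A1 (0.46) and HARS2 (0.41). Downward it differed for AIMP2 (-0.58), EIF2B2 (-0.40), FARSB (-0.30), PPP1R15B (-0.25) and WARS2 (-0.24).

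The withdrawal effect differed between MUT10 and MUT35 for VLDLR (0.99), DDIT4 (0.64), CBS (0.48), TRIB3 (0.41), AARS (0.38), CEBPB (0.37), GARS (0.25), KARS (-0.34) and VARS (-0.59).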

How the results depend on the processing

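Of the 12 counts of members, all stayed within 1.5 times the reported count under DESeq2, limma-voom, RLE factors, no filter, at least 10 counts in every library and the replicate block. The members lower in the interaction numbered 1 as reported, 3 with the GC trend removed (also with the replicate block, or without the 2 MUT10 libraries) and 4 without the 2 MUT10 libraries alone. The members with a higher withdrawal effect in MUT10 than in MUT35 numbered 7 as reported, 11 in those 3 GC settings, and 4 with library size alone or with only the groups compared. Of the values picked by the naming rule, 3 changed sign in the GC settings. These were ATF4 in WT8 (-0.013 and, with the replicate block, -0.014), TRIB3 in WT8 (-0.38) and CEBPG in MUT10 (0.042, 0.040 with the replicate block and 0.030 without the 2 MUT10 libraries). Values outside that rule also changed sign, as given above for CEBPB, GDF15, EPRS and XPOT. With the GC trend removed, calls turned from higher to lower for 1 member in WT8 and 2 in MUT35. They turned from lower to higher for 1 member in MUT10 and 1 in MUT35. ASNS in MUT10 minus MUT35 was -0.019 without the 2 MUT10 libraries. The alternatives do not say whether the GC trend came from dox or preparation, and the cause was not tested.

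With 1 library left out at a time, members higher and lower numbered 7 to 11 and 12 to 14 in WT8, 17 to 20 and 9 to 10 in MUT10, 13 to 16 and 10 to 12 in MUT35, 8 to 12 and 1 to 2 in the interaction, 14 to 18 and 6 to 8 in the mutant clones against WT8, and 4 to 8 and 2 in MUT10 minus MUT35. The 2 came without MUT10 dox off replicate 4 and the 4 without MUT10 dox on replicate 3. DDIT3 in WT8 was -0.019 without dox off replicate 4. ATF4 passed in the interaction without MUT10 dox off replicate 4 (0.20) or WT8 dox on replicate 1 (0.22), and PPP1R15A did not without WT8 dox on replicate 2 (0.43) or 4 (0.45). CHAC1 in WT8 did not pass without dox on replicate 4 (0.58). ASNS in MUT10 did not pass without dox off replicate 4 (0.12) or dox on replicate 1 (0.17) or 2 (0.13). TRIB3 in MUT10 minus MUT35 lost its call without 12 of the mutant libraries taken singly (0.34 to 0.42) and CBS without 7 (0.41 to 0.47). Single libraries left out also gave calls to TRIB3 in WT8 (4 libraries, 0.21 to 0.30), to DDIT3 in MUT10 minus MUT35 (3 libraries, 0.50 to 0.51) and to CHAC1 in the mutant clones against WT8 (3 libraries, 0.43 to 0.49).

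Replicate numbers were shared between dox states, and same-numbered libraries of a clone correlated from -0.15 to 0.29 in their deviations from the group means. Of the 12 dox off libraries 7 matched their own number best, among them all of MUT35 (correlations of 0.063 to 0.16). Whether the numbers mark pairs was thus not settled, and the main model did not take them as pairs. The replicate block used terms shared by all clones, so it did not model pairs within a clone. With the replicate block, the counts were 10 higher and 13 lower in WT8, 19 and 9 in MUT10, 15 and 10 in MUT35, 10 and 1 in the interaction, 17 and 6 in the mutant clones against WT8, and 7 and 2 in MUT10 minus MUT35. Of all 13900 genes, that fit called 4127 and 4152 in WT8, 4716 and 4492 in MUT10, and 4470 and 4362 in MUT35. In the other comparisons, in the same order, it called 1709 and 1637, 3875 and 3950, and 930 and 616. TRIB3 in WT8 passed with it (0.22, adjusted p = 0.024). Genes of a few counts, such as NUPR1 and CHAC1, were limited by depth.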
